A study of Homo sapiens with 8 samples.

Results

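The integrin subunits described here are 10 of the 18132 genes named on the array, 5 for beta subunits (ITGB1, ITGB3, ITGB4, ITGB5 and ITGB8) and 5 for alpha subunits (ITGAV, ITGA2, ITGA3, ITGA5 and ITGA6). A probe set is a group of short oligonucleotides on the array whose signals are read together as 1 value. The members are every probe set whose annotation names exactly 1 gene, where that gene is in the list: 42 of the 49293 probe sets left once control probe sets were set aside. RNA came from H1299, an established line of human non-small cell lung carcinoma cells, grown in RPMI medium with fetal bovine serum and antibiotics, and it was measured on 8 one-colour arrays. In a first set, 3 arrays hold cells in which a transfected short hairpin RNA targeted USF1, and 3 hold their own controls. In a second set, 1 array holds cells with a hairpin against UGT1A3 and 1 its control. All groups share the parental line. What the control cells received, the hairpin sequences, and whether each array came from a separate culture are not given in the sources used here, so the p-values rest on the spread among these arrays alone, and that spread may be technical.

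An integrin is a receptor in the plasma membrane built of an alpha and a beta subunit, and it ties the matrix outside the cell to actin inside it. ITGB1 pairs with many alpha subunits: with ITGA5 it binds fibronectin, with ITGA2 collagen, and with ITGA3 or ITGA6 laminin. ITGAV pairs with ITGB1, ITGB3, ITGB5 or ITGB8 in receptors for vitronectin, fibronectin or latent TGF-beta, and ITGB4 pairs with ITGA6 alone in hemidesmosomes, the anchors of epithelial cells to laminin. In lung carcinoma cells these receptors are known for their part in adhesion, spreading and migration.

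Array medians were 6.53 to 6.55 (log2 intensity) in the USF1 set, but 5.59 (control) and 5.63 (knockdown) in the UGT1A3 set, so levels were compared only within a set. Probe sets whose mean fell under the 40th percentile of their set of arrays are called dim here and were not tested, a limit of log2 5.63 for USF1 and 4.76 for UGT1A3. Changes are differences of mean log2 intensity, knockdown minus control, and adjusted p-values come from limma, a linear model fitted to all genes that shares the estimate of spread between them. USF1, the E-box factor targeted in the first set, lay at 6.31, 6.55 and 6.42 in its controls and at 6.06, 5.88 and 6.13 after knockdown, a fall of 0.40 on the log2 scale (SE 0.08, limma adjusted p = 0.00818). The groups did not overlap. UGT1A3, a glucuronidating enzyme, had no probe set of its own, and the 9 probe sets of its locus were dim on the arrays of either set, so its knockdown could not be checked. The keratins KRT8 and KRT18 and the intermediate filament VIM were bright in both sets. The epithelial genes KRT19, EPCAM and CDH1 were under the dim limit in both sets. Cells of different types were not separated, so in a bulk lysate fewer cells with a transcript and less of it per cell cannot be told apart.

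After USF1 knockdown ITGA5, the alpha chain of the fibronectin receptor, rose by 0.45 (SE 0.06, n = 3 against 3) and ITGB5, the beta chain of a vitronectin receptor, by 0.29 (SE 0.04). The laminin receptor subunit ITGA3 rose by 0.15 (SE 0.03). ITGA6, another laminin receptor subunit, fell on 2 of its 3 probe sets, by 0.19 and 0.20, but not on the brightest. ITGAV, ITGB1, ITGB4 and ITGA2 showed no change that passed on the probe set that stood for the gene, and ITGB3 and ITGB8 were too dim to test. In the UGT1A3 pair the collagen receptor subunit ITGA2 was 2.27-fold higher and ITGB5 2.12-fold lower in the knockdown array, on 1 array each.

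The probe set with the highest mean stood for its gene. Of the 8 member genes that were not dim, 3 rose and 5 did not pass an adjusted p of 0.05. By limma 0 fell, and 0 were lower at an unadjusted p under 0.05. Over all 11448 genes tested, 40.7% passed, 22.0% upward and 18.7% downward, so the members' share of 37.5% lay near that of all genes. The median change was 0.07 over the 8 genes and 0.01 over all genes. No member gene changed by 1.5-fold or more, whereas 194 of all tested genes did. When every probe set was tested on its own, 25 of the 42 were bright enough, of which 10 rose, 2 fell and 13 did not pass. Among all 29576 probe sets tested in that way 37.3% passed, 19.8% upward and 17.5% downward, against 40% and 8% of the members. The knockdown and control arrays did not overlap for 15 of the 25, 12 upward and 3 downward, against 51.2% of all probe sets, 27.3% upward and 24.0% downward. Probe sets of 1 gene read the same transcripts and are not independent.

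**Figure D1:**
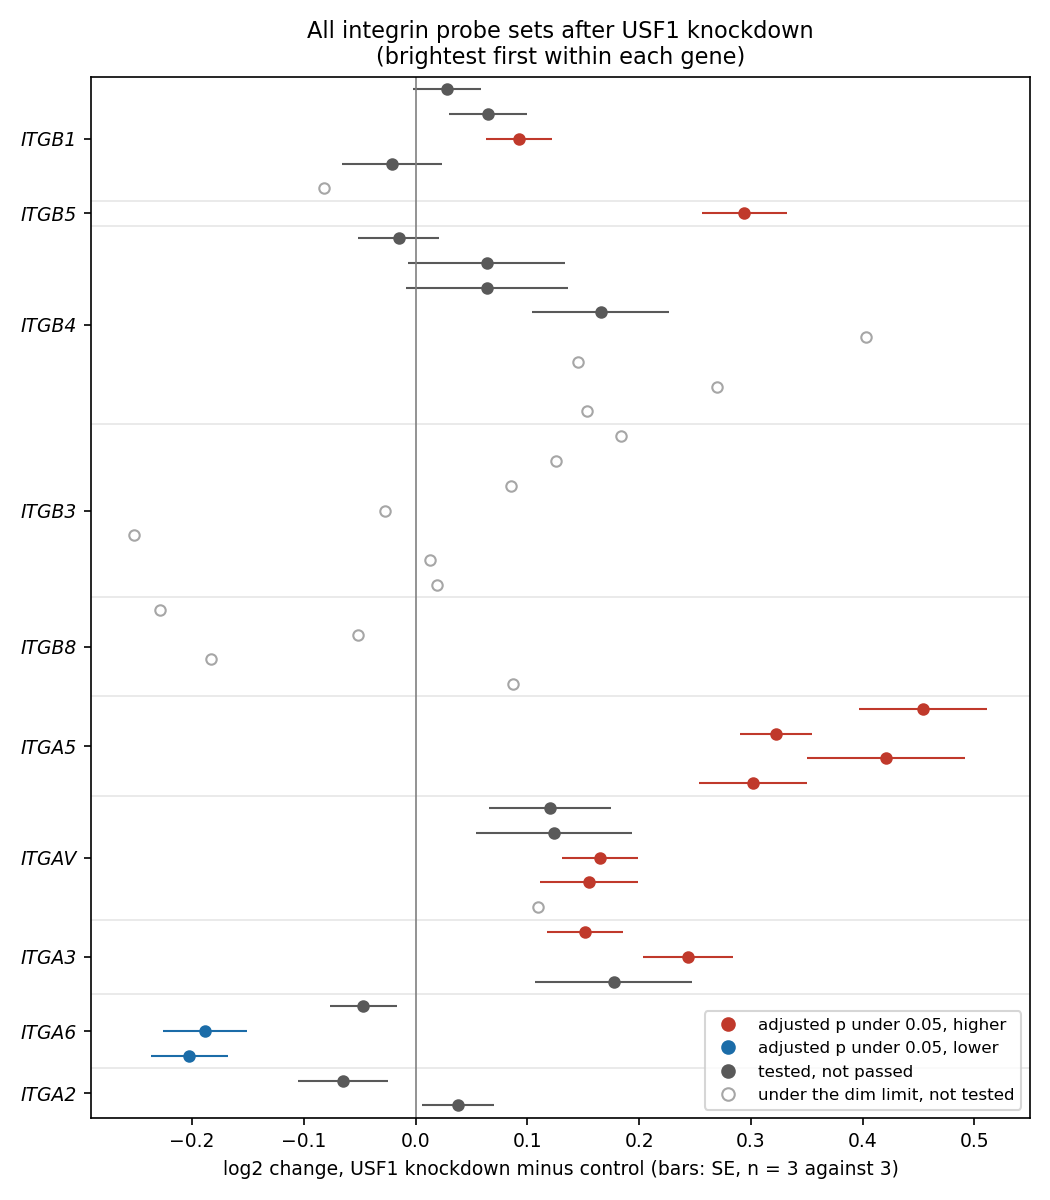
Log2 change after USF1 knockdown (knockdown minus control, horizontal axis) of all 42 integrin probe sets, ordered from brightest to dimmest within each gene, with moderated standard errors (n = 3 against 3) for the 25 tested. All 4 ITGA5 probe sets and the single ITGB5 probe set lie to the right of 0, and 2 ITGA6 probe sets lie at about -0.2.

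ITGA5, which pairs with ITGB1 alone in the classical fibronectin receptor, gave the largest change among the member genes. Its brightest probe set (11715703_s_at) read 8.18, 8.24 and 8.04 in the controls and 8.59, 8.67 and 8.56 after USF1 knockdown. Every knockdown array lay above every control, and the rise of 0.45 (SE 0.06, limma adjusted p = 0.00112) amounts to 37.0% more signal. On the second (11715704_x_at) the values were 7.71, 7.68 and 7.71 in the controls and 7.99, 8.01 and 8.06 after knockdown. The third (11715702_at) read 6.64, 6.87 and 6.91 in the controls and 7.22, 7.24 and 7.22 after knockdown, and the dimmest (11748449_a_at) read 6.80, 6.65 and 6.73, then 7.09, 7.02 and 6.98. Neither group overlapped the other on any of the 4 probe sets. Tested singly, they rose by 0.45, 0.32, 0.42 and 0.30 in the same order (limma adjusted p from 5.91e-04 to 0.00411). ITGA5 ranked 429 of 11448 genes by the size of its change. By root mean square over the 6 arrays, the genes whose deviations from their own control mean lay closest to those of ITGA5 were KITLG (0.04), NACC2 (0.04) and TRIM6 (0.04), which changed by 0.46, 0.45 and 0.41. The change is part of those deviations, so like changes follow from the way these genes were picked. Shared regulation was not tested.

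Of the vitronectin receptor subunits ITGB5 rose, as did 2 of the 4 tested probe sets of ITGAV. ITGB5 has 1 probe set, at 9.08, 9.04 and 9.15 in the controls and 9.36, 9.40 and 9.38 after USF1 knockdown. The groups were apart, with a rise of 0.29 (SE 0.04, limma adjusted p = 0.00107) or 22.6%. For ITGAV, its usual alpha partner, the brightest probe set lay at 9.03, 8.92 and 9.01 in the controls, and at 9.01, 9.18 and 9.13 after knockdown. Here the first knockdown array lay within the controls, and the difference of 0.12 (SE 0.05, limma adjusted p = 0.121) did not pass. Leaving out that array gave 0.17 and a limma adjusted p of 0.0398. Without any 1 of the other arrays the change was 0.08 to 0.14 and did not pass (limma adjusted p from 0.138 to 0.306). A second ITGAV probe set, reading 7.60, 7.63 and 7.55 in the controls and 7.57, 7.85 and 7.73 after knockdown, overlapped in the same way. The third ITGAV probe set (11716299_a_at) read 6.90, 6.90 and 6.98 in the controls and 7.09, 7.10 and 7.08 after knockdown, a rise of 0.17 (limma adjusted p = 0.00923). The next in brightness rose by 0.16 (11716301_a_at, limma adjusted p = 0.0312), a call lost without any 1 array other than the first knockdown array (adjusted p from 0.0602 to 0.0993). With the probe sets of a gene averaged, ITGAV rose by 0.13 (limma adjusted p = 0.0225).

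Of the laminin receptor subunits, ITGA3 rose. The brightest ITGA3 probe set (11756790_a_at) read 10.46, 10.47 and 10.44 in the controls and 10.56, 10.64 and 10.62 after USF1 knockdown. All knockdown arrays were above the controls, and the rise was 0.15 (SE 0.03, limma adjusted p = 0.00895) or 11.1%. Another probe set (11739145_a_at) went from 8.17, 8.08 and 8.19 to 8.41, 8.41 and 8.36, a rise of 0.24 (limma adjusted p = 0.00383). The dimmest ITGA3 probe set differed by 0.18 without passing (SE 0.07, limma adjusted p = 0.0893), with a control SD of 0.14 (n = 3).

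ITGA6, the alpha chain of both the laminin receptor with ITGB1 and the hemidesmosomal receptor with ITGB4, went the other way on 2 probe sets. The one of middle brightness (11739860_a_at) read 11.91, 11.91 and 11.93 in the controls and 11.67, 11.73 and 11.78 after USF1 knockdown. The dimmest (11736029_a_at) read 11.60, 11.59 and 11.58 in the controls and 11.36, 11.44 and 11.36 after knockdown. In both cases every knockdown array lay below every control, with falls of 0.19 (SE 0.04, limma adjusted p = 0.00804) and 0.20 (SE 0.03, limma adjusted p = 0.00443). The brightest probe set (11739861_s_at), which stood for the gene, read 13.09, 13.07 and 13.09 in the controls and 13.05, 13.01 and 13.05 after knockdown. It too lay lower in every knockdown array, but the difference of -0.05 (SE 0.03, limma adjusted p = 0.219) did not pass. As the mean of its 3 probe sets ITGA6 fell by 0.15 (limma adjusted p = 0.0034), so whether it passed depended on the probe set. Where on the transcript each probe set lies was not analysed here.

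USF1 binds DNA at E-boxes, and CACGTG is its best-known site. CANNTG is the general E-box pattern, and a CANNTG other than CACGTG is not taken here as a USF1 site. The 250 bases before the annotated start sites were searched for both on both strands, and each CACGTG is also a CANNTG. RefSeq promoter entries (GRCh38.p14) were matched for 7 members, with 12 start sites: ITGB1, ITGB5, ITGB8, ITGAV, ITGA2, ITGA5 and ITGA6. ITGB3, ITGB4 and ITGA3 had none. CACGTG occurred before 1 of the 12 start sites, the upstream one of ITGA6, where its first base lies 101 bases before the start. Over all 35116 start sites in the table, 6.34% had the motif in this window. CANNTG occurred before 5 of the 12 and before 61.8% of all start sites. The ITGA6 stretch is printed because it alone held CACGTG among these 12, beside those of ITGA5 and of ITGB5 at its outermost start, the members with the largest rises. The capitals mark CACGTG in ITGA6 and the only CANNTG in ITGA5, while the ITGB5 stretch held neither. The ITGA6 stretch held 7 CANNTG in all, CACGTG included. Of the other ITGB5 start sites, the innermost had 2 CANNTG in its window (CAAGTG and CACCTG). The gene as a whole thus does not lack CANNTG, but none of its windows held CACGTG. The positions are chr2:172427086-172427335 on the plus strand for ITGA6, chr12:54419267-54419516 on the minus strand for ITGA5 and chr3:124901419-124901668 on the minus strand for ITGB5. A match is a run of letters only, and binding was not measured.
ITGA6: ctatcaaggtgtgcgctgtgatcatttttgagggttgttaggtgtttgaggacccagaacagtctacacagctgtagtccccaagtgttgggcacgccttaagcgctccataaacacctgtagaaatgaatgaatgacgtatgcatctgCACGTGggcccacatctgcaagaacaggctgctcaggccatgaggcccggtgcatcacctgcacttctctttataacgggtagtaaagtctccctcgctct
ITGA5: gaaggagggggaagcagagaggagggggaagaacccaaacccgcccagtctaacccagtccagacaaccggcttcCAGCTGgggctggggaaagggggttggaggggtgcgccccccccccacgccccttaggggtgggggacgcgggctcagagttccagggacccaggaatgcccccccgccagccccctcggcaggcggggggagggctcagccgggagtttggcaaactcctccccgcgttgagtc
ITGB5: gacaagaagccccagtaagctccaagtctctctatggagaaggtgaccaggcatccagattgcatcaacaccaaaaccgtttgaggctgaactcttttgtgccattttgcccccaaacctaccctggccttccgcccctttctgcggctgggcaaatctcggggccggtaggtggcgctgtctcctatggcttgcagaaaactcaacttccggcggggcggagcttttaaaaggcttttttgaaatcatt

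ITGB1, the shared beta chain of the fibronectin, collagen and laminin receptors above, was among the brightest members and moved little. Its brightest probe set lay at 13.85, 13.83 and 13.86 in the controls, and at 13.86, 13.90 and 13.87 after USF1 knockdown. The groups overlapped, and the difference was 0.03 (SE 0.03, limma adjusted p = 0.459). The other 3 bright ITGB1 probe sets differed by -0.02 to 0.09. The largest of these passed (11715728_a_at, 0.09, limma adjusted p = 0.0467), and lost the call when any 1 of the 6 arrays was left out (adjusted p from 0.0713 to 0.137). ITGA2, which with ITGB1 binds collagen, read 8.13, 8.07 and 8.05 in the controls and 7.97, 8.07 and 8.01 after knockdown. These values overlapped, with a difference of -0.07 (SE 0.04, limma adjusted p = 0.22), and the second ITGA2 probe set differed by 0.04.

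ITGB4, the hemidesmosomal beta chain, read 6.45, 6.40 and 6.44 in the controls and 6.37, 6.40 and 6.46 after USF1 knockdown on its brightest probe set, a difference of -0.02 (SE 0.03, limma adjusted p = 0.758). Only 4 of its 8 probe sets were bright enough to test, and none passed by limma (1 had an unadjusted p under 0.05). The tested ones other than the brightest differed by 0.06 to 0.17, and the 4 dim ones by 0.15 to 0.40. The largest tested difference (11733098_a_at, limma adjusted p = 0.0721) passed with the replicate number as a block (limma adjusted p = 0.0394). It also passed without the first control array (limma adjusted p = 0.022), but not without any 1 of the others (from 0.0859 to 0.194). All 7 probe sets of ITGB3 and all 4 of ITGB8, beta partners of ITGAV, were dim in the USF1 and the UGT1A3 arrays alike. Their control means ran from 3.75 to 5.48 for ITGB3 and from 3.26 to 4.02 for ITGB8. With no dim limit 1 of these 11 passed, an ITGB3 probe set with a control mean of 4.26 (-0.25, limma adjusted p = 0.0279), while the other 6 of ITGB3 differed by -0.03 to 0.18.

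**Figure D2:**
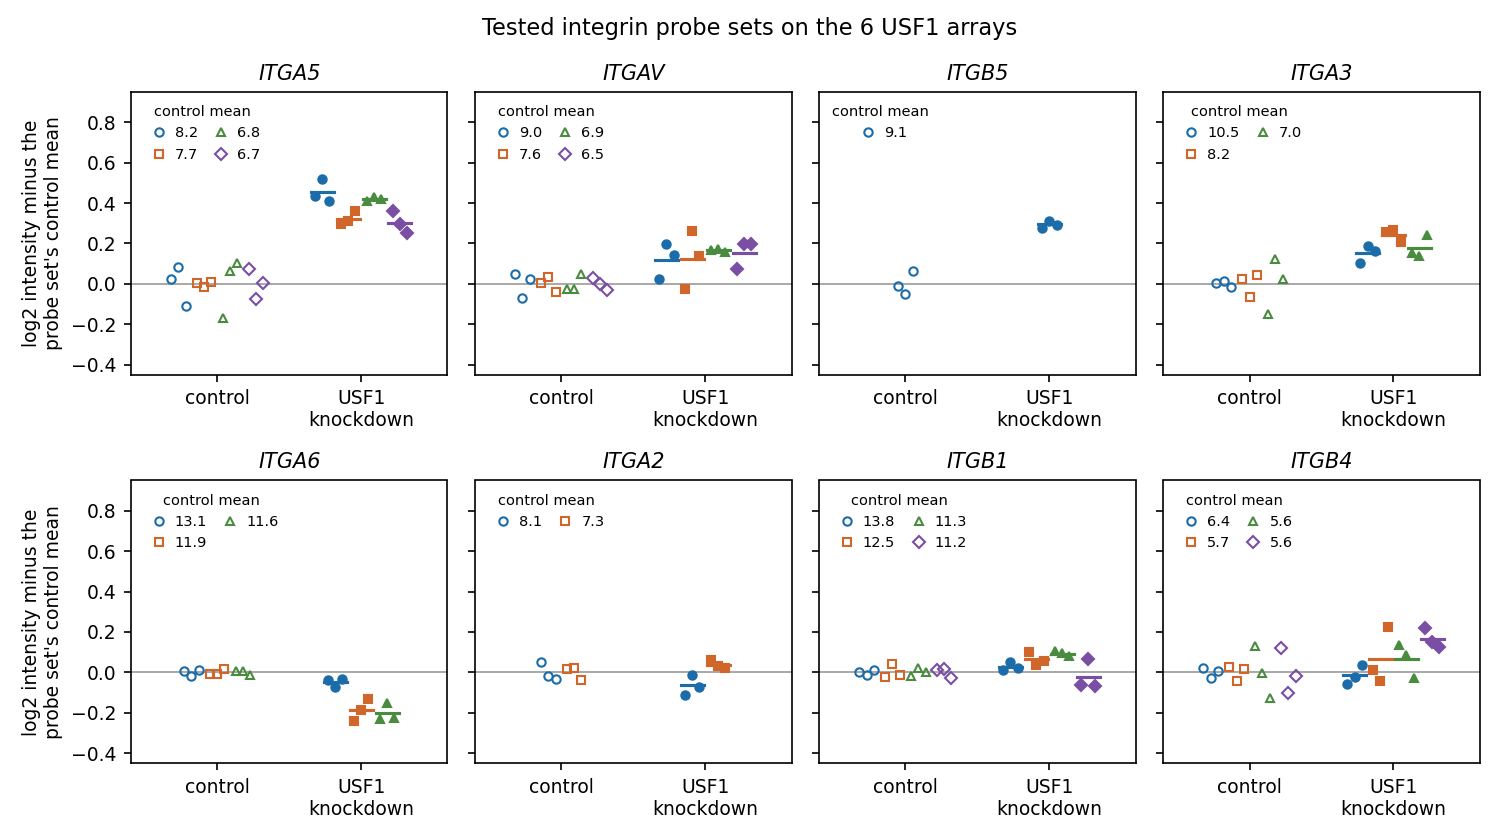
Each array's log2 intensity minus the control mean of its probe set (vertical axis), for the 25 tested probe sets of 8 integrin genes. Open symbols are the 3 controls, filled symbols the 3 USF1 knockdown arrays, bars their means, and legends give each probe set's control mean. ITGA5 and ITGB5 knockdown arrays all lie above the controls, while ITGB1 and ITGA2 symbols lie close to 0.

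In the UGT1A3 pair there was 1 array per group, so these differences have no replicate check and no p-value and describe 2 arrays. ITGA2 stood at 6.16 in the control and at 7.34 after knockdown, 1.18 higher. Its second probe set read 6.06 and 6.98, a difference of 0.91 or 1.88-fold. ITGB5 stood at 8.69 in the control and at 7.60 after knockdown, a difference of -1.08, the reverse of its direction after USF1 knockdown. Whether the 2 knockdowns differ in their effect on ITGB5 was not tested. Of the 8 member genes over the dim limit of this pair (4.76), these 2 were past 1.5-fold, 1 in each direction, while 3.56% of all 11620 genes were past that limit, 2.15% higher and 1.41% lower. By difference, ITGA2 ranked 12 among all genes from the highest and ITGB5 ranked 8 from the lowest. The higher genes made up 60.4% of those past 1.5-fold, against 49% with each array centred on its median and 48.8% with 16 intensity units added.

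The remaining 6 subunits over the limit differed by less than 1.5-fold in this pair, while ITGB3 and ITGB8 were dim and are not compared. The values of the probe set that stood for each gene come first. ITGA5 read 6.84 and 7.02 (0.18), ITGAV 7.49 and 7.65 (0.16), ITGA3 8.91 and 9.04 (0.13) and ITGB1 12.56 and 12.66 (0.10), control first. ITGB4 read 6.09 and 6.20 (0.11) and ITGA6 11.06 and 11.03 (-0.04), and with quantile normalization the ITGA6 difference was 0.01. Its other probe sets differed by 0.05 and 0.06. Other probe sets over the limit differed more for some genes, up to 0.36 for ITGA5 (11715702_at), 0.32 for ITGB1 (11737219_a_at), 0.29 for ITGA3 (11749035_a_at) and 0.28 for ITGAV (11716299_a_at). Counting every probe set over the limit, 22 of 27 members were higher in the knockdown array, against 51.5% of all probe sets. The 27 belong to 8 genes, and probe sets of 1 gene are not independent. Among the 27, 3 were past 1.5-fold (2 ITGA2 probe sets higher, ITGB5 lower). Of all probe sets over the limit 3.48% were past 1.5-fold, 1.86% higher and 1.61% lower.

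**Figure D3:**
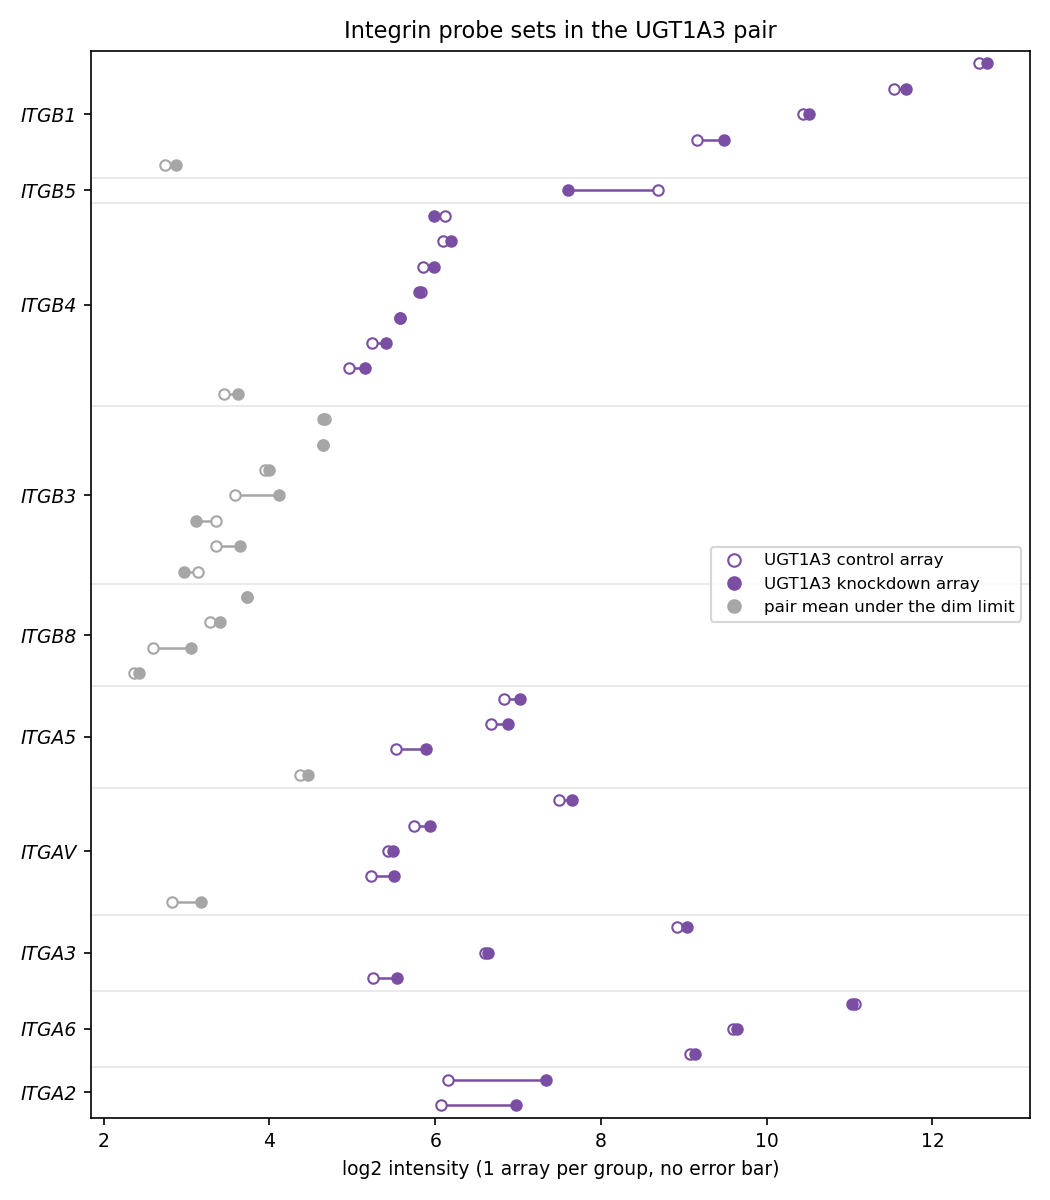
Log2 intensity (horizontal axis) of all 42 integrin probe sets in the UGT1A3 control array (open) and knockdown array (filled), with 1 array per group. Grey marks the probe sets whose mean over the pair was under 4.76. The long lines belong to both ITGA2 probe sets, higher in the knockdown array, and to ITGB5, lower there.

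Among the other integrin genes ITGA10, a collagen-binding partner of ITGB1, rose after USF1 knockdown. It read 7.80, 7.78 and 7.87 in the controls and 8.44, 8.45 and 8.22 after knockdown, a rise of 0.55 (SE 0.07, limma adjusted p = 9.34e-04). Across its 3 bright probe sets the rise ran from 0.39 to 0.55, and all 3 passed. The UGT1A3 pair read 5.56 (control) and 5.94 on its representative probe set (0.38), while the other one over the limit differed the other way, by -0.11. ITGA4, a fibronectin and VCAM1 receptor subunit, differed by 0.08 (limma adjusted p = 0.302) after USF1 knockdown. ITGAE, which with ITGB7 binds E-cadherin, rose by 0.16 (SE 0.03, limma adjusted p = 0.0063), and the leukocyte subunits ITGAX and ITGAL differed by -0.05 and 0.03 without passing.

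The integrins' ligands moved both ways after USF1 knockdown. Of 14 tested ligand genes 6 rose, 4 fell and 4 did not pass, with a median of 0.01. Over all tested genes 40.7% passed, 22.0% upward and 18.7% downward. Whether this list or those below differ from that share was not tested. Osteopontin (SPP1), a ligand of ITGAV receptors, fell by 0.51 (SE 0.03), while the laminin chains LAMB2 and LAMC1 rose by 0.56 (SE 0.09) and 0.17 (SE 0.03), and fibronectin (FN1) rose by 0.23. None of 16 ligands in the UGT1A3 pair was past 1.5-fold, and the largest differences were those of LTBP1 (0.57), which holds latent TGF-beta in the matrix, and SPP1 (0.52). The probe sets of LTBP1 ran from 0.17 to 0.70 there, and those of SPP1 from 0.52 to 0.71.

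Of 21 tested genes that activate integrins or link them to actin, 6 rose, 5 fell and 10 did not pass (median 0.05). Over all tested genes 22.0% rose and 18.7% fell. Focal adhesion kinase (PTK2) rose by 0.30 (SE 0.03), whereas the kindlin FERMT1 fell by 0.45 (SE 0.05) and the kinase SRC by 0.35 (SE 0.04). FERMT2, a second kindlin, rose by 0.26 (SE 0.03). FERMT1 was higher by 0.58 and the adaptor CRKL lower by 0.44 after UGT1A3 knockdown. The FERMT1 probe sets ran from 0.24 to 0.58 there, and those of CRKL disagreed, running from -0.44 to 0.00.

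Of 4 tested genes that restrain integrins or the talin link, 3 rose (median 0.26), against 22.0% of all tested genes. KANK2, which binds talin, rose by 0.30 (SE 0.03) and DOK1, which competes with talin for the beta tail, by 0.28 (SE 0.06). SHARPIN, which binds alpha tails, rose by 0.25 (SE 0.03). ITGB1BP1, which binds the ITGB1 tail, differed by 0.01 (limma adjusted p = 0.763), with bright probe sets from -0.18 to 0.01. It was the only one past 1.5-fold between the UGT1A3 arrays, lower by 0.83, although its probe sets ran from -0.83 to 0.20.

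Of 16 membrane partners 6 rose, 3 fell and 7 did not pass (median 0.07), against 22.0% of all tested genes upward and 18.7% downward. The tetraspanin CD82 rose by 0.84 (SE 0.04), and the fibronectin co-receptor syndecan-4 (SDC4) and the integrin-binding amino acid transporter chain SLC3A2 fell by 0.67 (SE 0.04) and 0.51 (SE 0.04). Limma adjusted p-values ran from 3.18e-05 for CD82 to 0.00702 for DOK1 among the partner genes given with an SE in these 4 lists. Between the UGT1A3 arrays the hyaluronan receptor CD44 was lower by 0.79, with probe sets from -0.90 to 0.04, and the tetraspanin CD9 by 0.45.

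**Figure D4:**
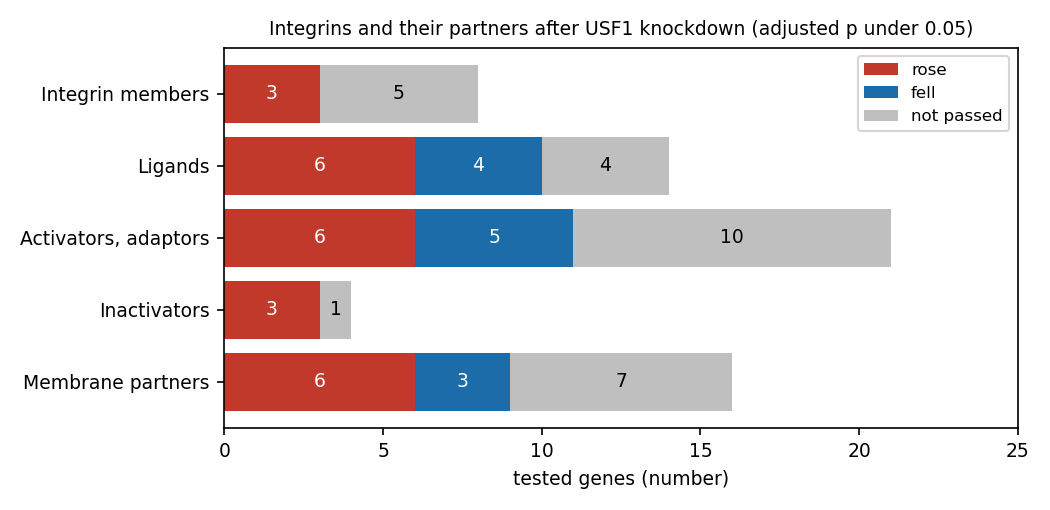
Number of tested genes (horizontal axis) that rose, fell or did not pass a limma adjusted p of 0.05 after USF1 knockdown, in the 8 tested integrin members and 4 lists of partner genes. Rises and falls occur side by side among ligands (6 and 4), activators and adaptors (6 and 5) and membrane partners (6 and 3). Over all tested genes 22.0% rose and 18.7% fell.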

How the data were processed

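The authors deposited 1 table of intensities for 49395 probe sets on 8 arrays, taken as log2 from its range of values. Per the submitters' processing notes MAS5 was used, with no role or version named, and no source used here gives the scaling of the arrays. The 102 control probe sets were left out. Names came from the platform annotation, and 44961 of 44988 probe sets with 1 symbol were matched by Entrez number to RefSeq genes. Suffixes _s_at and _x_at mark probe sets that may also read related transcripts.

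Values were used as deposited. The USF1 set was fitted with limma 3.58.1 (lmFit, eBayes, R 4.3.3), with two-sided p-values adjusted by Benjamini-Hochberg over all tested genes, or over all tested probe sets where each was tested singly, at a threshold of 0.05. Dim probe sets (mean under the 40th percentile) were left out. SE is the moderated standard error. On simulated data the fit was tested beforehand. The UGT1A3 pair gave differences alone, with 1.5-fold as the limit. The members and gene lists were chosen with earlier results of these data known. Named were all members, other integrin genes over the limit, and of each list up to 3 genes by smallest adjusted p or 2 by largest difference in the pair; some were left out of the text, and FN1, FERMT2 and markers under the limit were added after their values were seen. Alternatives covered the normalization, the dim limit, the summary per gene, the fit and each array left out. The number of arrays limits the precision.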

Additional observations from a re-analysis of the deposited data

How the results depend on the processing

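Over the alternatives run on the USF1 set, ITGA5, ITGB5 and ITGA3 passed upward in each, and no call of a member gene changed direction. The number of member genes that passed was 3 of 8 in the main analysis. With the mean of all probe sets it was 5 of 7 (4 higher, 1 lower), as ITGB4 was then dim, and 4575 of all 10346 genes passed. The number of member genes that passed ran from 3 to 4 when 1 array was left out, and the number of member probe sets from 10 to 13. The count of all genes ran from 3644 to 4365 without 1 array, against 4657. With the replicate number as a block 4233 genes, 3 member genes, 9999 probe sets and 11 member probe sets passed. The same-numbered arrays deviated from their group means with correlations of -0.10, 0.20 and 0.09, so the numbers were not taken to pair them. In the UGT1A3 pair 414 genes were past 1.5-fold, 265 at a dim limit of the 60th percentile, 258 with 16 intensity units added and 31 at 2-fold. For probe sets the number was 1028 against 638, 627 and 81 in turn. ITGA2 and ITGB5 were past the limit in each, 2-fold included. Signal under the dim limit restricts ITGB3 and ITGB8 in both sets, and 4 of the 8 ITGB4 probe sets in the USF1 set. In the UGT1A3 pair 7 of the 8 ITGB4 probe sets were over the limit.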

Other observations

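Both tested hemidesmosome genes other than the integrins rose after USF1 knockdown, as did 22.0% of all tested genes. Dystonin (DST), a plakin, rose by 0.16 (SE 0.03, limma adjusted p = 0.00557). Plectin (PLEC), which links ITGB4 to keratin, rose by 0.11 (SE 0.03, limma adjusted p = 0.0295). KRT5, KRT14 and COL17A1 had no probe set over the dim limit in either set. Of the 5 genes in this list, 4 had a probe set naming that gene alone. In the UGT1A3 pair DST and PLEC differed by 0.21 and 0.03.

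Of the marker genes fixed for the carcinoma cells, KRT8 rose by 0.25 (SE 0.04, limma adjusted p = 0.00197) after USF1 knockdown, while KRT18 differed by 0.04 and VIM by less than 0.01. Of 6 fibroblast markers 1 was bright enough to test, of 6 leukocyte markers 2 and of 5 endothelial markers 2, and none of these 5 passed by limma, nor had any an unadjusted p under 0.05. PTPRC, the common leukocyte antigen, was under the limit. In the UGT1A3 pair 3 leukocyte markers were over the limit, with a median difference of -0.07: CD68, a lysosomal protein used as a macrophage marker, differed by 0.47, CD3E by -0.28 and CD79A by -0.07.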
